A study of Rattus norvegicus with 18 samples.

Results

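The epiblast is the pluripotent layer of the early embryo, from which all tissues of the body and the germ line arise. The comparison described here is between epiblast of 2 stages of rat gastrulation, embryonic day (E) 7.75 and E7.25. Its members were 6 of the 18 libraries of the series, chosen by their labels, with 3 libraries per day (2 labelled male and 1 labelled female). All came from the strain Crlj:WI, a Wistar stock, and carried Prdm14-Venus, a fluorescent reporter of the germ line gene Prdm14. The number of reporter alleles, and whether the libraries of a day came from separate embryos, are not in the labels. The p-values thus only set a difference between days against the spread among libraries, which may in part be technical. No treatment is labelled. The other 12 libraries, of primordial germ cells of the same genotype at E9.5 to E15.5, entered only the estimate of the spread. Values were RPKM, read numbers relative to gene length and library size, and 12202 of the 32545 genes in the table were tested, those at 1 RPKM or more in at least 2 of the 6 libraries.

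Before gastrulation the epiblast is held in a pluripotent state by factors such as Pou5f1, Sox2 and Nanog, and it receives Nodal, BMP, Wnt and FGF signals from itself and from the extraembryonic tissues around it. BMP from the extraembryonic ectoderm acts through Smad1, Smad5 and Smad9 and switches on the Id genes, whose proteins bind basic helix-loop-helix factors and keep them off DNA. As the primitive streak forms at the posterior side, cells there take up mesoderm and endoderm fates and a few become germ cells, while the anterior epiblast goes on to neural and surface ectoderm.

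The labels were checked against marker genes. Epiblast genes were high in all 6 libraries: Utf1, a chromatin factor of pluripotent cells, was at 1079.6 to 1626 RPKM and Dnmt3b, a de novo DNA methyltransferase, at 915 to 1343 RPKM. Pou5f1 lay between 243 and 827 RPKM. The germ cell gene Prdm14 was at 1.11 RPKM in the library labelled E7.25 male 1 and listed at 0 in the other 5. A 0 in this table need not mean absence, since the ribosomal gene Fau, which every cell uses, was listed at 0 in all 6, as was Fgf5, an epiblast marker. Otx2, Pou3f1, Sox3 and Xist are not analysed here.

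One library went against its label. The Y-linked gene Eif2s3y was at 118 RPKM in the library labelled E7.25 male 1 and at 166 and 145 RPKM in the libraries labelled E7.75 male 1 and 2. It was listed at 0 in the library labelled E7.25 male 2, as in a library labelled female (0.0466 RPKM at E7.25 and 0.140 RPKM at E7.75). The Y-linked genes Kdm5d and Uty and the line of Ddx3y that followed them were also listed at 0 there. The libraries were kept in the days that their labels give, but their sex is not known to be balanced between days: these 4 lines were at or near 0 in 2 of 3 libraries at E7.25 and 1 of 3 at E7.75. A second line of the symbol Ddx3y was at 8.32 to 14.4 RPKM in all 6 libraries, and Usp9y was listed at 0 in 5 of them. X-linked Kdm5c, a histone demethylase, was at 59.6, 93.0 and 96.1 RPKM at E7.25 (labelled male replicate 1, male replicate 2 and female, the order of all such triplets below) and at 48.3, 36.8 and 58.8 RPKM at E7.75.

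Marker genes of other tissues were low, with exceptions. Of the visceral endoderm markers, which summed to 522 to 641 RPKM, most of the sum was Emb at 429 to 493 RPKM, and Afp, Spink1, Fgb and Sox7 were listed at 0. Sums for extraembryonic ectoderm were 89.1, 127 and 174 RPKM at E7.25 against 66.3, 60.6 and 73.7 RPKM at E7.75, so the days did not overlap. Most of this came from Rhox5 and Ascl2, while the defining Elf5, Cdx2 and Gata3 were at or near 0. Extraembryonic mesoderm markers summed to 61.3 to 95.8 RPKM, and blood and endothelial markers to 6.29 to 13.4 RPKM, with overlap between days in both. Decidua and leukocyte markers summed to 9.74, 7.48 and 9.62 RPKM at E7.25 and to 13.6, 11.0 and 10.5 RPKM at E7.75, low but without overlap. The part of these cells in any difference below was not tested. In bulk samples fewer cells of a kind and less RNA per cell cannot be told apart. Depth relative to the E7.75 female library, estimated from ratios of RPKM, was 82.6% to 102%, and 11235 to 11418 genes per library reached 1 RPKM.

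**Figure D1:**
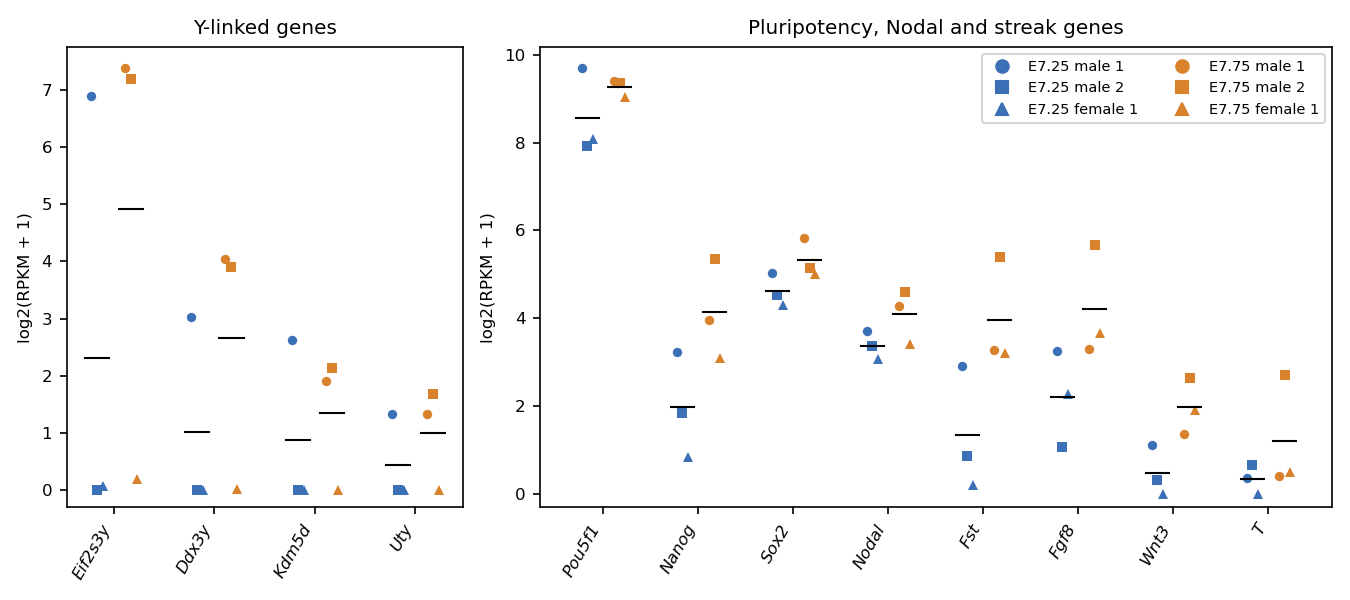
Level of each gene as log2(RPKM + 1), 1 point per library and a black bar for the mean of the 3 libraries of a day, with E7.25 in blue and E7.75 in orange. The left panel shows Y-linked genes, where the library labelled E7.25 male 2 lies at 0; in the right panel the library labelled E7.25 male 1 lies with E7.75 for Pou5f1, and the library labelled E7.75 male 2 is highest for Nanog, Nodal, Fst, Fgf8, Wnt3 and T.

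Few genes passed the threshold for a difference between the days. In the fit of limma (a linear model with a spread shared across genes) on log2(RPKM + 1) over all 18 libraries, 39 of 12202 genes passed an adjusted p of 0.05 (0.32%), 14 that rose (0.115%) and 25 that fell (0.205%) at E7.75. All 39 had no overlap between the 3 libraries of each day, as did 17.7% of all genes tested (8.18% with a log2 difference of 0.5 or more as well), and in 29 of the 39 the days differed by 1 or more on the log2 scale. An unadjusted p under 0.05 was reached by 1218 genes (9.98%). With the 6 epiblast libraries alone 24 genes passed (0.197%), of which 16 were among the 39. Without the library labelled E7.25 male 2, the one that went against its label, 30 genes passed and 17 of the 39 calls were lost. The 13 calls that passed without any one of the 6 libraries were Rpl30, Foxb1, Tmsb4x, Stt3a, Lypd1, Id1, Id2, Tuba3a, Tuba3b, Acp6, Efna1, Vps26a and a Y_RNA locus. The median gene had a 95% interval of ± 0.61 on the log2 scale (1.53-fold), without adjustment over the genes tested. A call at that spread needed a larger difference, since the largest unadjusted limma p of any call was 0.000153. The median log2 fold change of all genes tested was -0.0006. Libraries of the same day were not much closer than those of different days: their median absolute log2 difference was 0.241 to 0.306 within a day and 0.266 to 0.329 between days.

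**Figure D2:**
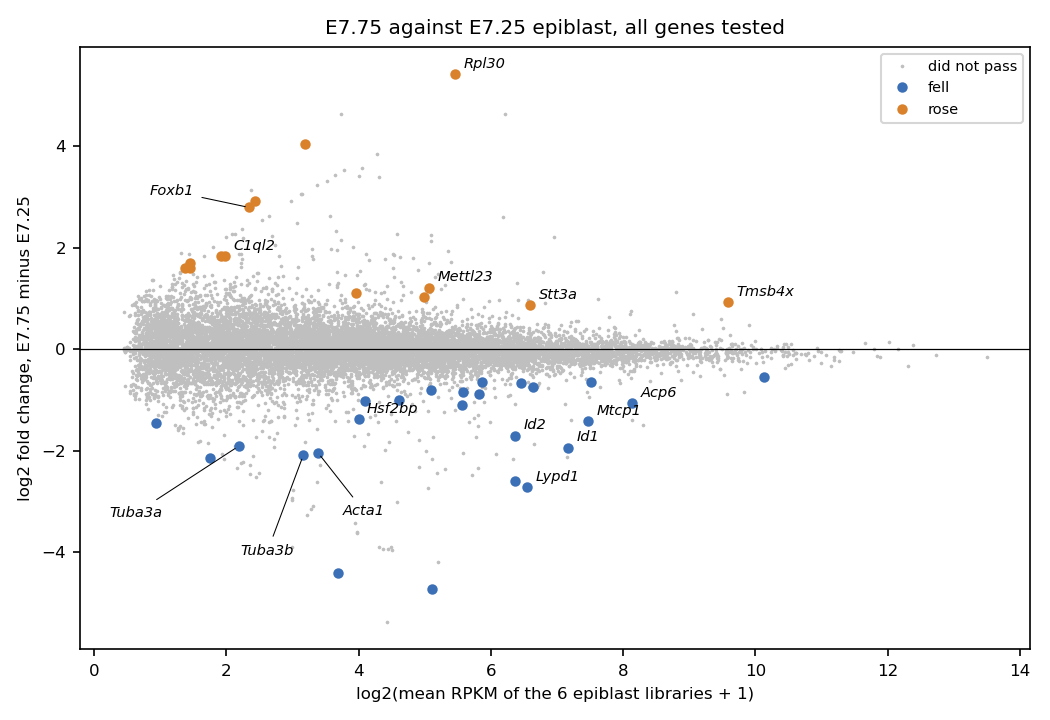
Log2 fold change (E7.75 minus E7.25) of each gene tested against its mean level over the 6 epiblast libraries, on log2 scales, with genes that rose in orange, genes that fell in blue and the rest in grey. The 39 genes that passed are scattered over the range of levels, and Rpl30 had the largest rise (5.42).

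BMP target genes held 2 of the falls, Id1 and Id2. Among 9 members tested of 21 in the table, 0 rose, 2 fell and 7 did not pass. Over all genes tested 0.115% rose and 0.205% fell. The median log2 fold change of the 9 was -0.41, and 4 were lower and 1 higher at E7.75 without overlap, where over all genes tested 9.4% were lower and 8.32% higher without overlap. Earlier results of these data already showed the falls of Id1 and Id2, so the list is no independent evidence of its direction. Id1 was at 209.9, 217 and 251 RPKM at E7.25 and at 37.4, 73.7 and 69.9 RPKM at E7.75. All E7.25 libraries thus lay far above all E7.75 libraries. The means were 226 ± 21.7 and 60.4 ± 20.0 RPKM (SD, n = 3 and 3), a 3.74-fold fall (log2 fold change -1.94 ± 0.23 SE, limma adjusted p = 0.00179; 0.0191 with the 6 epiblast libraries alone, and 0.0764 when the library labelled E7.25 male 2 was also left out). Id2 was at 129, 119.7 and 126 RPKM at E7.25 and at 36.8, 47.8 and 30.1 RPKM at E7.75, a 3.26-fold fall (log2 fold change -1.71 ± 0.22, limma adjusted p = 0.00399). The E7.25 values of Id2 lay within a narrow band and the days were well apart.

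Their paralogues did not pass. Id3, the most abundant of the family here, was at 298, 348 and 341 RPKM at E7.25 and at 215, 191 and 266 RPKM at E7.75 (log2 fold change -0.56 ± 0.13, limma adjusted p = 0.0866). The libraries did not overlap, and Id3 passed without the library labelled E7.75 female (-0.69, adjusted p = 0.0262). Id4 was at 0 to 4.10 RPKM with overlap between days. Bambi, a decoy receptor of the TGF-beta family that BMP induces, was at 40.9, 42.0 and 38.7 RPKM at E7.25 and 28.4, 21.3 and 26.3 RPKM at E7.75 and did not pass (limma adjusted p = 0.144). Hey1, a bHLH repressor, was the member higher without overlap, at 0.729 to 1.52 RPKM at E7.25 and 1.55 to 5.03 RPKM at E7.75. Msx1, a homeobox gene induced by BMP in mesoderm, was at 1.06 to 5.01 RPKM in both days together.

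The promoters of Id1 and Id2 are shown because these genes fell together. They are the 250 bases upstream of each gene's start in the RefSeq table for GRCr8, a later build than the rn6 of the expression values, with bases in capitals where TATAAA or CCAAT occurs on either strand.
Id1: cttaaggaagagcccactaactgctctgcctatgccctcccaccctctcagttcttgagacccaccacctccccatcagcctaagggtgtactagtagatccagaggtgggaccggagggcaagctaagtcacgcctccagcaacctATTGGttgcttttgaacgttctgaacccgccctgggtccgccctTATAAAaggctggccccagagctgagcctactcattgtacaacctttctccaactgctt
Id2: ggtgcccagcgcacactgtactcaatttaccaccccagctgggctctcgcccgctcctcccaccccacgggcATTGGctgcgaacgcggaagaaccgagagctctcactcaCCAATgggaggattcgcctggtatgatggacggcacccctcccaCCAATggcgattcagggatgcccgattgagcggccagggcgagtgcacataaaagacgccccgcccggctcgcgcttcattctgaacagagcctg
The Id1 stretch is chr3:161671314-161671563 on the plus strand and the Id2 stretch chr6:47470996-47471245 on the minus strand. In Id1 TATAAA begins 59 bases and CCAAT 103 bases upstream of the start, and in Id2 CCAAT begins 178, 139 and 95 bases upstream. The same stretches of Id3 and Id4 hold neither. Over 33469 promoters of this length 34.0% hold CCAAT and 12.9% TATAAA. Motifs bound by Smads were also searched on both strands: GGCGCC (in 8.69% of promoters), GTCTAGAC (0.173%) and the longer GNCGNC followed after 5 further bases by GTCT (0.463%). The E-box CACGTG (5.59%) was searched too, and these 4 are absent from these 4 stretches. CCAAT was added to the search after the Id1 and Id2 sequences had been seen. A match or its absence in this window describes the letters alone.

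Genes that encode BMP ligands, receptors, Smads and antagonists did not pass. Of 17 tested, 1 was higher and 2 lower without overlap (8.32% and 9.4% of all genes tested), and the median log2 fold change was -0.08. Bmp4, the ligand whose loss leaves mouse embryos without germ cells, was at 6.78, 9.03 and 14.5 RPKM at E7.25 and 6.11, 8.08 and 3.39 RPKM at E7.75, with overlap (log2 fold change -0.70 ± 0.26, limma adjusted p = 0.326). The signal transducers Smad1 and Smad5 overlapped between days, with means of 30.2 and 30.9 RPKM for Smad1 at E7.25 and E7.75. Fst, which encodes the secreted antagonist follistatin, was at 6.58, 0.822 and 0.159 RPKM at E7.25 and 8.65, 40.9 and 8.24 RPKM at E7.75. Its value in the library labelled E7.75 male 2 stood far above the rest, and it did not pass (log2 fold change 2.62 ± 0.75, limma adjusted p = 0.203).

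In the Nodal pathway 0 of 17 tested genes passed, and the median log2 fold change was 0.12. Without overlap 3 were higher and 5 lower (8.32% and 9.4% of all genes tested). Nodal itself was at 12.1, 9.27 and 7.39 RPKM at E7.25 and 18.5, 23.1 and 9.66 RPKM at E7.75, with overlap (limma adjusted p = 0.574). The ligand Gdf3, a partner of Nodal, was at 3.82, 2.73 and 4.34 RPKM at E7.25 and 0.524, 0 and 0.410 RPKM at E7.75 (log2 fold change -1.83 ± 0.39, limma adjusted p = 0.0685), and it passed only with quantile normalization (adjusted p = 0.0357). Tdgf1, the Nodal co-receptor Cripto, was at 719, 1051 and 1199 RPKM at E7.25 and 492, 633 and 469 RPKM at E7.75. Its libraries did not overlap, but its standard error in the fit of 18 libraries was wide (log2 fold change -0.88 ± 0.58, limma adjusted p = 0.693; 0.138 with the 6 libraries alone). Foxh1, the DNA-binding partner of Smad2, lay the other way, at 25.1, 23.5 and 15.6 RPKM against 42.1, 49.5 and 33.2 RPKM (limma adjusted p = 0.199). Thus the values of Gdf3 and Tdgf1 were lower and those of Foxh1 higher at E7.75, each without passing.

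Wnt, FGF and primitive streak genes had 0 calls. Of 24 Wnt pathway genes tested 1 was higher without overlap and 0 lower (median log2 fold change -0.05), and of 22 FGF genes 2 were higher and 2 lower (median -0.12). Of 9 streak and mesoderm genes tested, of 31 in the table, 4 were higher without overlap and 0 lower, against 8.32% and 9.4% of all genes tested, with a median of 0.39. These were Wnt3, Fgf8, Fst and Gsc. Wnt3, the ligand that starts streak formation, was at 1.17, 0.245 and 0 RPKM at E7.25 and 1.58, 5.21 and 2.76 RPKM at E7.75 (log2 fold change 1.49 ± 0.41, limma adjusted p = 0.177). Fgf8, which mesoderm needs to leave the streak, was at 8.49, 1.11 and 3.88 RPKM and at 8.93, 50.2 and 11.6 RPKM (limma adjusted p = 0.268). In both the highest value was that of the library labelled E7.75 male 2. T (Brachyury), the defining streak factor, was below the filter, at 5.58 RPKM in that library and at most 0.570 RPKM in the other 5. That library was highest in 11 of the 24 streak and mesoderm genes above 0, and in 2140 of the 12202 genes tested. Eomes, a T-box factor of the early streak, overlapped between days at 14.9 to 26.6 RPKM, and Mixl1 was listed at 0 in all 6.

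The same library and 1 of E7.25 also stood out for visceral endoderm genes. Of 18 such markers above 0, 8 were highest in the library labelled E7.75 male 2 and 6 in the library labelled E7.25 male 1. Over all genes tested these 2 libraries were highest in 17.5% and 18.4%. Apoe, an apolipoprotein that is not in this marker list, was at 104 and 127 RPKM in these 2 libraries and at 16.3 to 32.5 RPKM in the other 4. Dab2, an endocytic adaptor of the visceral endoderm, was at 17.3 and 23.0 RPKM there and at 7.26 to 12.8 RPKM in the others. Apoe and Dab2 lie outside the rule for named genes. No streak or visceral endoderm gene passed, and the part of such cells in these values was not tested.

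No pluripotency gene passed. Of 13 tested 0 rose, 0 fell, 0 were higher and 5 lower without overlap (8.32% and 9.4% of all genes tested), with a median log2 fold change of -0.19. Pou5f1 (Oct4) was at 827, 243 and 271 RPKM at E7.25 and 679.8, 656 and 523 RPKM at E7.75. The library labelled E7.25 male 1 was above all E7.75 libraries and the other E7.25 libraries below them. Pou5f1 did not pass (limma adjusted p = 0.504), and without that library it did (log2 fold change 1.26, adjusted p = 0.00758). Sox2, its partner on DNA, was at 31.8, 21.96 and 18.9 RPKM against 56.0, 34.2 and 31.2 RPKM (limma adjusted p = 0.259). Nanog was at 8.33, 2.62 and 0.793 RPKM against 14.7, 39.6 and 7.48 RPKM (log2 fold change 2.16 ± 0.52, limma adjusted p = 0.114). Nanog overlapped between days by 1 library of each, and it passed without the library labelled E7.25 male 1 (adjusted p = 0.0157), without the library labelled E7.75 female (0.0381) and with labelled sex as a term (0.0176). Dppa4 was lower at E7.75 without overlap and did not pass (log2 fold change -0.59).

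The library labelled E7.25 male 1 lay with E7.75 for some other genes. The ribosomal protein gene Rpl17 was at 16.3, 158 and 174 RPKM at E7.25 and at 16.9 to 19.3 RPKM at E7.75, and 1 of the 2 lines of Rps10 was at 0.489, 24.2 and 25.3 RPKM at E7.25 and at most 0.116 RPKM at E7.75. The other line of Rps10 was at 319 to 354 RPKM in all 6 libraries. These were chosen after their values were seen. How reads with several matches were treated is not given, a limit on these values as on those of Rpl30 below. Of 8344 genes averaging 5 RPKM or more, 184 were apart in the library labelled E7.25 male 1 from both others of its day. Of these 36 lay near the other day. The library labelled E7.25 female had 180 apart and 15 of them near. The library labelled E7.25 male 2 had 80 and 22, a larger part. The E7.75 libraries had 112 to 158 apart and 18 to 27 near.

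Of 12 formative and primed epiblast genes tested none passed in either fit, and the median log2 fold change was -0.16. Without overlap 3 were higher and 2 lower (8.32% and 9.4% of all genes tested). Zic2 was at 0.177 to 0.859 RPKM at E7.25 and 1.41 to 3.79 RPKM at E7.75 (limma adjusted p = 0.217), and Grhl2, an epithelial transcription factor, at 8.36 to 9.93 RPKM and 4.76 to 6.18 RPKM (adjusted p = 0.594).

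Foxb1 was the 1 neural ectoderm gene of 12 tested that rose (0.115% of all genes tested rose). This forkhead factor marks the early neural plate and brain. It was at 0.855, 0.0417 and 0 RPKM at E7.25 and 7.31, 10.7 and 5.67 RPKM at E7.75. It was thus under 1 RPKM in every E7.25 library and above 5 RPKM in every E7.75 library (log2 fold change 2.80 ± 0.34 on the log2(RPKM + 1) scale, which understates changes of low genes; limma adjusted p = 0.00189; 0.0378 with the 6 libraries alone). Foxb1 did not pass with a pseudocount of 0.1 (5.02, adjusted p = 0.0775), nor with the 6 libraries alone when sex was a term (0.0517) or the library labelled E7.25 male 2 was left out (0.131). Of the other neural genes, Zic2, Zic5, Hesx1 and Msi1 were higher without overlap and Hes3 was among those lower. Over all genes tested 8.32% were higher and 9.4% lower without overlap. The median of the 12 was 0.43. Hesx1, a repressor of the anterior neural plate, was at 2.175 to 3.66 RPKM at E7.25 and 4.62 to 6.77 RPKM at E7.75 (limma adjusted p = 0.597). Tubb3, the neuronal beta tubulin, was at 2.13, 2.28 and 0.561 RPKM and at 6.99, 9.40 and 12.7 RPKM (log2 fold change 2.05 ± 0.48, limma adjusted p = 0.102), and passed with a pseudocount of 5 (adjusted p = 0.0275) or quantile normalization (0.0473). Rnf112, known from brain, and Dpysl4, a collapsin response mediator of axons, rose from at most 0.816 and 0.909 RPKM at E7.25 to at least 1.57 and 1.89 RPKM at E7.75 (limma adjusted p = 0.0291 and 0.0418; both 0.198 with the 6 libraries alone). They lie outside the rule for named genes and were chosen after their values were seen.

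C1ql2 and Psmb9 also rose from low levels. C1ql2, a secreted C1q-like protein of synapses, was at 0.830, 1.501 and 0 RPKM at E7.25 and 4.43, 7.20 and 3.68 RPKM at E7.75 (log2 fold change 1.84 ± 0.34, limma adjusted p = 0.0291). It did not pass with a pseudocount of 0.1 (0.269) or the 6 libraries alone (0.157), nor without the library labelled E7.25 female (0.113) or the libraries labelled E7.75 male 1 (0.0745) or 2 (0.132). Psmb9, an inducible subunit of the immunoproteasome, was at 0, 1.80 and 0.448 RPKM and at 3.48, 6.68 and 4.36 RPKM (limma adjusted p = 0.0219), and did not pass with a pseudocount of 0.1 (0.0775) or 5 (0.103), with the 6 libraries alone (0.174) or without the library labelled E7.25 female (0.0920) or the library labelled E7.75 male 2 (0.104). It was the 1 of 9 interferon and antigen processing genes tested that rose, with 0 that fell and a median of 0.32. Over all genes tested 0.115% rose and 0.205% fell. RT1-A1, a class I histocompatibility gene, was at 0.602 to 1.43 RPKM and 1.73 to 2.73 RPKM (adjusted p = 0.440).

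**Figure D3:**
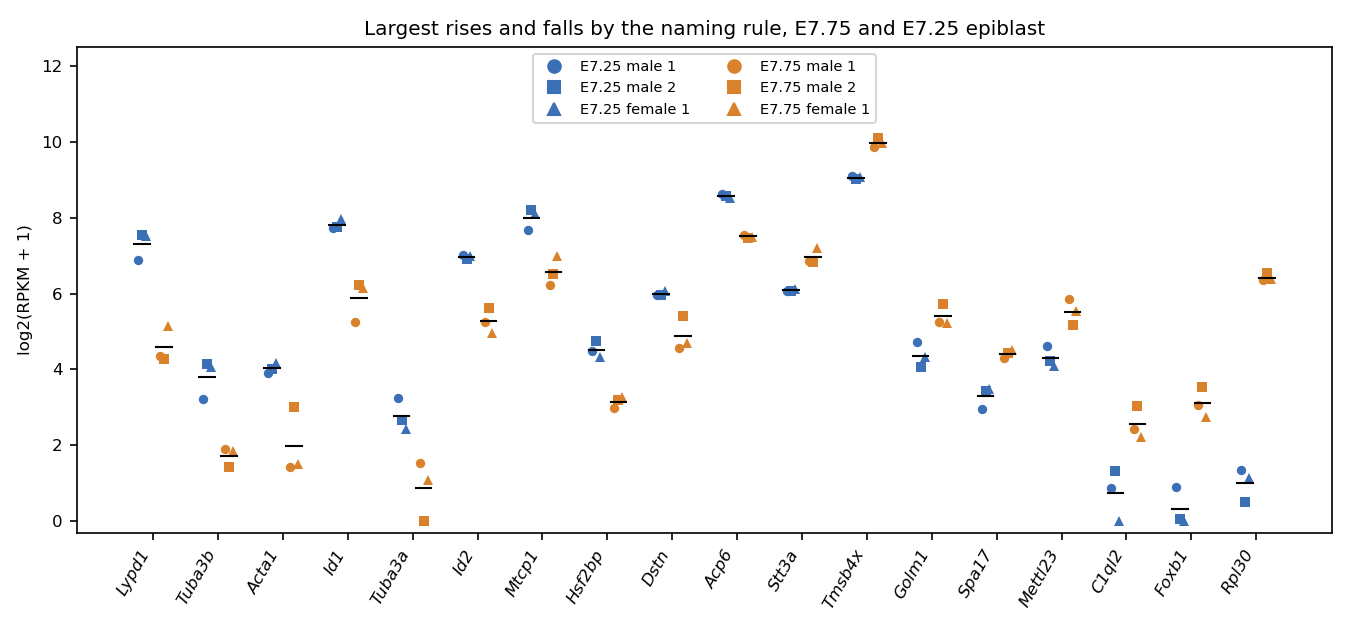
Level of the largest rises and falls that passed by the naming rule, as log2(RPKM + 1), 1 point per library and a black bar for the mean of the 3 libraries of a day, with E7.25 in blue and E7.75 in orange. In each of the 18 genes the points of the days do not overlap, and the 3 libraries of a day lie close together in Acp6 and Tmsb4x and wider apart in Acta1 and C1ql2.

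Rpl30 had the largest rise of any named gene. This component of the large ribosomal subunit was at 1.54, 0.418 and 1.21 RPKM at E7.25 and 80.3, 91.4 and 82.6 RPKM at E7.75 (log2 fold change 5.42 ± 0.33, limma adjusted p = 7.82e-07). Reads may be split between Rpl30 and near-identical copies, which makes its values uncertain, and how the counting treated these is not given in the sources used here. Of 72 ribosomal protein lines tested it was the 1 that rose and 0 fell (0.115% and 0.205% of all genes tested). The median log2 fold change of the 72 was -0.04. Germ cell libraries spanned 14.2 to 249.7 RPKM for Rpl30.

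Tmsb4x and Stt3a rose among abundant genes. Tmsb4x, which encodes the actin monomer-binding peptide thymosin beta 4, was at 546, 515 and 534 RPKM at E7.25 and 926, 1099 and 1006 RPKM at E7.75, a 1.90-fold rise (log2 fold change 0.92 ± 0.14, limma adjusted p = 0.00818; 0.00173 with the 6 libraries alone). Stt3a, the catalytic subunit of the complex that glycosylates proteins as they enter the endoplasmic reticulum, was at 66.0, 66.7 and 69.0 RPKM and at 115, 112 and 145 RPKM, a 1.85-fold rise (limma adjusted p = 0.00490; 0.0375 with the 6 libraries alone, and 0.131 when the library labelled E7.25 male 2 was also left out). In both genes the 3 E7.25 libraries were nearly alike.

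Mettl23, Spa17 and Golm1 rose by 2.40-fold, 2.26-fold and 2.09-fold. Mettl23, a histone arginine methyltransferase, was at 23.6, 17.6 and 16.1 RPKM and at 56.9, 35.3 and 45.4 RPKM (limma adjusted p = 0.0123). Spa17, a sperm protein, was at 6.84, 9.86 and 10.3 RPKM and at 18.7, 20.4 and 21.8 RPKM (0.0220), and Golm1, a Golgi membrane protein, at 15.6 to 25.3 RPKM and at 36.2 to 51.9 RPKM (0.0291). These 3 calls were less firm than those above. With the 6 libraries alone their adjusted p was 0.0957, 0.109 and 0.131. Mettl23 did not pass without the library labelled E7.25 female (0.0637) or the library labelled E7.75 male 1 (0.0568), nor Spa17 without any one E7.75 library (0.0553 to 0.0782). Golm1 did not pass without the libraries labelled E7.25 male 2 (0.0928) or female (0.113) or the libraries labelled E7.75 male 1 (0.0630) or 2 (0.134).

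Lypd1 had the largest fall among named genes. Lypd1, a GPI-anchored protein of the Ly6 family, was at 118, 185 and 181 RPKM at E7.25 and 19.6, 18.3 and 34.4 RPKM at E7.75, a 6.70-fold fall (log2 fold change -2.72 ± 0.38, limma adjusted p = 0.00476; 0.00528 with the 6 libraries alone). With a pseudocount of 0.1 it did not pass (-2.77, adjusted p = 0.317). It was at most 1.97 RPKM in the germ cell libraries. The unnamed locus AABR07020815.1, also among the falls, was at 105, 148 and 166 RPKM and at 16.1, 17.5 and 36.4 RPKM, and over the 18 libraries its Pearson correlation with Lypd1 was 0.991, a value set largely by the gap between epiblast and germ cells.

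Among 28 actin, tubulin and thymosin genes tested 1 rose (Tmsb4x) and 3 fell (0.115% and 0.205% of all genes tested). Without overlap 6 were higher and 6 lower (8.32% and 9.4% of all genes tested), and the median log2 fold change was 0.015. Tuba3b and Tuba3a, alpha tubulins best known from testis, are near-identical copies that can share reads. Tuba3b was at 8.33, 16.6 and 15.8 RPKM at E7.25 and 2.72, 1.68 and 2.57 RPKM at E7.75 (log2 fold change -2.09 ± 0.25, limma adjusted p = 0.00179), and Tuba3a at 8.55, 5.35 and 4.40 RPKM and at 1.87, 0 and 1.13 RPKM (-1.91 ± 0.32, 0.0170). With the 6 libraries alone neither passed (0.0539 and 0.160), nor did Tuba3a with a pseudocount of 0.1 (0.145). Acta1, the skeletal muscle actin, was at 14.0, 15.1 and 17.1 RPKM and at 1.70, 7.11 and 1.83 RPKM (-2.05 ± 0.38, 0.0311). It did not pass with a pseudocount of 0.1 (0.196), no filter (0.0510), the 6 libraries alone (0.130) or without the libraries labelled E7.25 male 2 (0.0911) or female (0.129) or the libraries labelled E7.75 male 1 (0.148) or female (0.0946). Actb, the main cytoplasmic actin, was at 4396 to 4739 RPKM and Tuba1b at 492 to 521 RPKM in all 6 libraries. Dstn, the actin-severing protein destrin, was another fall by the rule, from 63.0 ± 2.52 to 29.6 ± 10.01 RPKM (n = 3 and 3, limma adjusted p = 0.0413). It did not pass with the 6 libraries alone (0.109), a pseudocount of 0.1 (0.0515), no filter (0.0688), a filter over all 18 libraries (0.0556) or with either other scaling (0.0531 and 0.0506), and passed in leave-outs only without the library labelled E7.75 male 2 (0.0710 to 0.167 in the other 5).

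Of 20 tested germ line genes that DNA methylation is known to silence in the soma, 1 passed. Among them 0 rose and 1 fell (0.115% and 0.205% of all genes tested). Without overlap 0 were higher and 5 lower (8.32% and 9.4% of all genes tested), and the median log2 fold change was -0.23. Hsf2bp, a partner of BRCA2 in meiotic recombination, was the fall, at 21.5, 25.8 and 19.2 RPKM at E7.25 and 6.84, 8.10 and 8.59 RPKM at E7.75 (log2 fold change -1.39 ± 0.25, limma adjusted p = 0.0291; 0.0447 with the 6 libraries alone and 0.0961 with these and sex as a term). It passed in leave-outs only without the library labelled E7.75 female, with 0.0520 to 0.119 in the other 5. Ddx4, the germ cell RNA helicase Vasa, was at 10.9, 26.8 and 29.7 RPKM and at 3.98, 4.99 and 8.71 RPKM (-1.71 ± 0.41, 0.105). It passed without the library labelled E7.25 male 1 (0.0255) and with a pseudocount of 5 (0.0465).

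Mael, Rpl10l and Rhox5 were the other 3 members lower without overlap. Mael, a piRNA factor, was at 2.82, 3.25 and 4.54 RPKM and at 0.0666, 0.535 and 1.85 RPKM (limma adjusted p = 0.0915). It passed with labelled sex as a term (0.0364), quantile normalization (0.0306) and without the library labelled E7.75 female (0.0216). Rhox5, an X-linked homeobox gene also expressed in extraembryonic ectoderm, was at 39.8, 74.7 and 117 RPKM and at 28.2, 19.1 and 35.4 RPKM (limma adjusted p = 0.0968). Within each day the library labelled female was the highest for Rhox5, and the library labelled E7.25 male 2 came next, so these values moved with the Y-linked lines above. Rhox5 passed with labelled sex as a term (adjusted p = 0.0309) and without the library labelled E7.25 male 1 (0.00945). The labelled sex counts the library labelled E7.25 male 2 as male. Sohlh1, a bHLH factor of germ cells outside these lists and chosen after its values were seen, fell from 1.11, 1.79 and 2.53 RPKM at E7.25 and was listed at 0 in all 3 E7.75 libraries (limma adjusted p = 0.0260; 0.179 with the 6 libraries alone).

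The DNA methylation machinery had no call. Of 19 genes tested 1 was higher and 4 lower without overlap (8.32% and 9.4% of all genes tested), with a median log2 fold change of -0.05. Dnmt3b means were 1208 ± 131 and 1013 ± 94.4 RPKM, with overlap, and Dnmt3a means 196 ± 16.9 and 160.4 ± 9.30 RPKM (limma adjusted p = 0.904 and 0.818). Tet1, which oxidizes methylcytosine, was at 19.9, 19.4 and 21.7 RPKM and at 10.5, 10.8 and 14.9 RPKM (0.338). Among 11 germ cell specification genes tested 0 passed, with 1 higher without overlap and a median of 0.47; Prdm1 was at most 0.242 RPKM and Tfap2c at most 0.639 RPKM in any epiblast library.

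Of the remaining falls named by the rule, Acp6 and Mtcp1 were abundant. Acp6, a lysophosphatidic acid phosphatase, was at 395, 379 and 366 RPKM at E7.25 and 187, 177 and 179.5 RPKM at E7.75, a 2.099-fold fall with little spread in either day (log2 fold change -1.06 ± 0.14, limma adjusted p = 0.00459; 0.000579 with the 6 libraries alone). One of 2 lines of the symbol Mtcp1 was at 205, 295 and 271 RPKM and at 74.3, 90.6 and 125 RPKM (limma adjusted p = 0.0479; 0.0435 with the 6 libraries alone), while the other overlapped between days (log2 fold change 0.64 ± 0.66). Within each day the line of Mtcp1 that fell was highest where the Y-linked lines above were at or near 0. The part of sex in this fall was not tested. Mtcp1 did not pass without the libraries labelled E7.25 male 2 (0.137) or female (0.175) or the libraries labelled E7.75 male 1 (0.190) or 2 (0.162), nor with a pseudocount of 0.1 (0.0646), no filter (0.0961), a filter over all 18 libraries (0.0692), median ratio scaling (0.0544) or robust moderation (0.0744).

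The calls not named by the rule, given here for completeness, included Efna1, an ephrin ligand (21.9 ± 1.04 to 10.3 ± 1.96 RPKM, limma adjusted p = 0.00404), Vps26a, a retromer subunit (60.3 ± 1.95 to 33.5 ± 6.75 RPKM, 0.0110), Slc20a1, a phosphate transporter (124 ± 9.15 to 73.8 ± 7.09 RPKM, 0.0219), and Laptm4b, a lysosomal membrane protein (1332 ± 60.8 to 913 ± 37.8 RPKM, 0.0305), n = 3 and 3 in each. Efna1 and Vps26a did not pass with the 6 libraries alone (0.109 and 0.09997), and Laptm4b passed there (0.0131) but in no leave-out of the fit of 18. Fam195a, Rpp25, Syngr1, Akt1s1, Hexa, Dohh and Akr1b8 fell too, and Lck, a kinase of T cells, rose (at most 0.735 RPKM to at least 2.01 RPKM, 0.0479). The other 5 calls were small RNA or unnamed loci, of which 2 rose and 3 fell. Of the 39 calls, 9 had a mean germ cell level under 1 RPKM, and in 6 of these the standard error was smaller in the fit of 18 libraries than with the 6 alone, such as 0.31 against 0.43 in Rnf112 and 0.26 against 0.36 in Sohlh1.

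**Figure D4:**
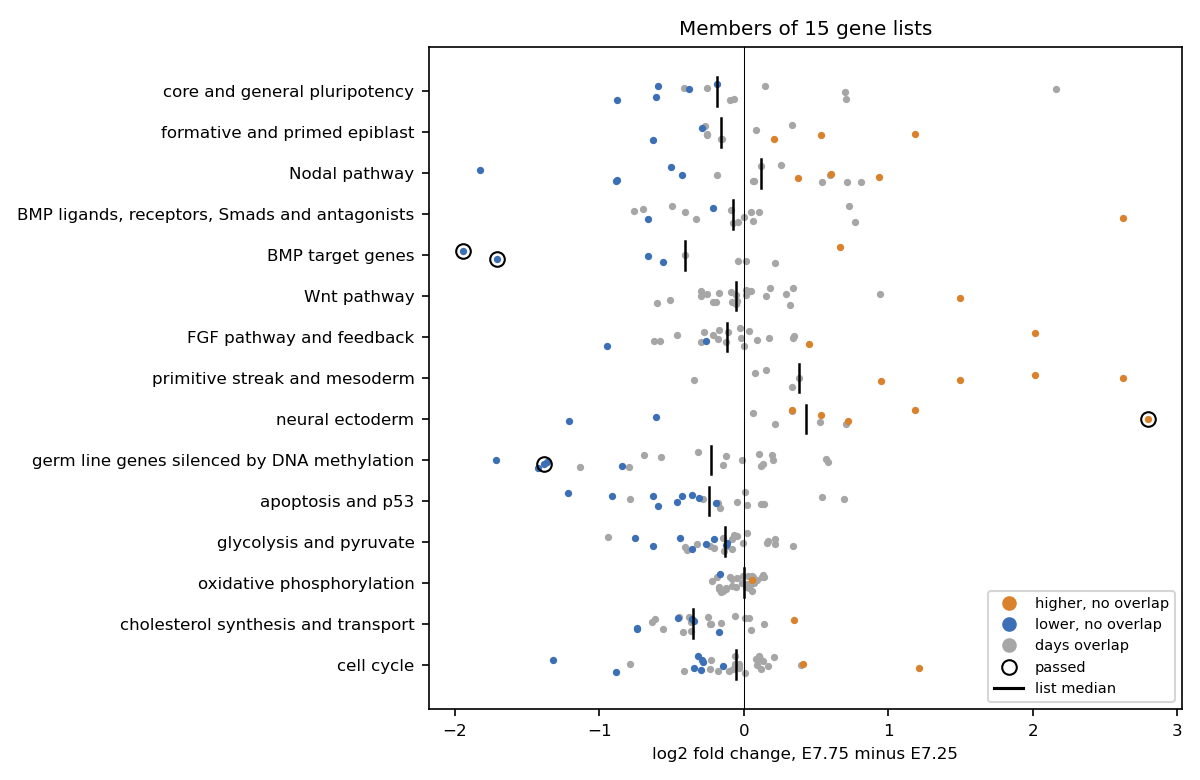
Log2 fold change (E7.75 minus E7.25) of the tested members of 15 gene lists, 1 point per gene, coloured where the libraries of the days do not overlap, circled where the gene passed, with a bar at each list's median. Circles appear in 3 of these lists (BMP target genes, neural ectoderm and silenced germ line genes), and medians lie between -0.41 and 0.43.

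Growth and survival genes had no call. Of 20 apoptosis and p53 genes tested 0 were higher and 9 lower without overlap (8.32% and 9.4% of all genes tested), and the median log2 fold change was -0.24. Phlda3, an inhibitor of Akt induced by p53, was at 25.9, 43.8 and 48.8 RPKM at E7.25 and 20.2, 15.01 and 13.0 RPKM at E7.75 (limma adjusted p = 0.359). Ccng1, cyclin G1 and also a p53 target, was at 79.6, 102 and 115 RPKM and at 64.1, 55.5 and 38.3 RPKM (0.263), and Sesn2, a stress sensor upstream of mTORC1, at 27.5, 37.6 and 40.7 RPKM and at 26.6, 19.5 and 21.1 RPKM (0.397). In all 3 the library labelled E7.25 male 1 was the lowest of its day. None of them passed with the 6 libraries alone (limma adjusted p = 0.138, 0.151 and 0.257). Of 34 cell cycle genes 2 were higher and 8 lower (median -0.06). Cdkn1b, the inhibitor p27, was at 1.40 to 3.64 RPKM and 5.05 to 7.55 RPKM (0.264), and E2f1 at 11.2 to 18.1 RPKM and 5.76 to 8.25 RPKM (0.140).

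Metabolic genes had no call either. Of 28 glycolysis and pyruvate genes 0 were higher and 8 lower without overlap, against 8.32% and 9.4% of all genes tested (median -0.13). Slc16a3, a lactate exporter, was at 361, 446 and 424 RPKM at E7.25 and 232, 269 and 294 RPKM at E7.75 (limma adjusted p = 0.457), and Aldoa, the most abundant member here, at 2451 to 2553 RPKM and 1997 to 2336 RPKM (0.536). Neither gene passed with the 6 libraries alone (limma adjusted p = 0.0957 and 0.254). Of 32 oxidative phosphorylation genes 1 was higher and 1 lower (median 0.004), all within -0.22 and 0.14. Of 24 cholesterol genes 1 was higher and 6 lower, with a median of -0.35. Cyp51, a demethylase of sterol synthesis, had means of 52.3 ± 9.49 and 30.7 ± 3.88 RPKM without overlap (n = 3 and 3, limma adjusted p = 0.129). Of 10 metallothionein and iron genes 0 were higher and 3 lower (median -0.18).

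The remaining lists also had 0 calls. Over all genes tested 8.32% were higher and 9.4% lower without overlap. Imprinted genes (19 tested, 3 higher and 2 lower, median -0.14) included Grb10, an adaptor that restrains insulin signalling, at 8.80 to 17.2 RPKM and 21.9 to 31.2 RPKM (limma adjusted p = 0.136), and Nnat at 5.45 to 7.36 RPKM and 11.7 to 20.8 RPKM (0.326). Cell adhesion and EMT genes (30 tested) had 3 higher and 3 lower with a median of -0.01, and Notch, Hedgehog and retinoid genes (20) had 3 and 4 with a median of 0.035. Histone methylation genes (23) had 1 and 5 (median -0.04), immediate early genes (19) 1 and 2 (0.05), definitive endoderm and node genes (8) 2 and 0 (0.05), and surface ectoderm and amnion genes (7) 1 and 1 (0.07). No Hox gene was tested, and 29 of 32 were listed at 0 in all 6 libraries.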

How the data were processed

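Per the labels' protocols, libraries were made from total RNA (PicoPure extraction) by SMART-Seq v4 amplification. The deposited values were RPKM, computed by the authors in 1 table with a column per library. Cufflinks 2.2.1, TopHat2 2.1.0, cutadapt 1.14, bcl2fastq 2.18.0.12 and the build rn6 are named in the submitters' processing notes, with no role or order. Not given in the sources used here are strand use and how reads with several matches were treated. Read counts were not used here, so relative depth came from the most common ratio of values under 50 RPKM between libraries. That ratio was shared by only 124 to 160 of the 9990 to 10805 genes compared per library, so the depths are rough estimates. Gene symbols are those of the file, since 0 of its 32545 identifiers matched the reference table.

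Values were set to log2(RPKM + 1), a pseudocount of 1, and genes at 1 RPKM or more in 2 of the 6 epiblast libraries entered a linear model (R 4.3.3, limma 3.58.1) with a variance trend and 8 groups over 18 libraries (10 residual degrees of freedom), sexes pooled. Epiblast libraries alone leave 4 degrees of freedom. P-values were two-sided and adjusted over all genes tested by the Benjamini-Hochberg method at 0.05. Simulated data for this comparison covered 12202 genes in a single draw, with changes placed only in genes averaging about 5 RPKM or more. Recovery in lower genes was not tested. Each simulated gene had the same spread in epiblast and germ cell libraries, so the effect of unequal spread was not tested either. The fit of 18 recovered 60 of 100 changes of log2 size 1 and 92 of 100 of size 2 with 14 false calls. The fit of 6 recovered 37 and 82 with 2 false calls. In this draw the fit of 18 thus made more false calls than its threshold allows. Calls that did not pass with the 6 libraries alone are the less certain.

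The members, lists, tests and the choice of the fit of 18 were made with earlier results of these data known. Named genes were the up to 10 largest rises and falls that passed, averaging 5 RPKM or more on the higher day without overlap, leaving out small RNA genes and unnamed loci (with symbols such as Y_RNA or SNORA17, wider than the prefixes first written). Per list they were the calls, up to 3 members without overlap that differed by 0.5 or more on the log2 scale, and the most abundant member without a call. Alternatives covered the pseudocount, filters, libraries, sex, pairing, scaling, robust moderation and leaving out each library. Python 3.11.15 with matplotlib 3.10.9 drew the figures.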

Additional observations from a re-analysis of the deposited data

How the results depend on the processing

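The count of genes that passed was 39 in the fit of 18 libraries. It was 24 with the 6 epiblast libraries alone and 21 with these and sex as a term. Leaving out 1 epiblast library gave 20 to 73 genes: 73 without the library labelled E7.25 male 1, 23 without the library labelled E7.25 female, 20 and 24 without the libraries labelled E7.75 male 1 and 2, and 58 without the one labelled E7.75 female. Without the library labelled E7.25 male 2, 30 passed, 16 of them rises, and 19 with the 6 libraries alone, an alternative added after its Y-linked genes were seen. The alternatives in the pseudocount, filter, scaling, moderation, sex term and pairing over 18 libraries gave 33 to 52, and 0 named calls reversed. Of the 39 calls 5 passed in all 19 alternatives: Rpl30, Tmsb4x, Id2, Acp6 and a Y_RNA locus. The cause of these shifts was not tested. With the replicate block (sex and number as pairs) 52 genes passed, but the numbers do not pair the samples: deviations of same-labelled libraries correlated at 0.061, 0.027 and -0.018. Of 88 named genes that did not pass, 10 did under some alternative. With 3 libraries a day and no read counts, differences under about 1.53-fold lay within the unadjusted interval of the median gene. A call at that spread needed a larger difference than 1.53-fold. A gene without a call is thus not shown to be unchanged.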
